A study of Mus musculus with 14 samples.

Results

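The transcripts described here are 10 messenger RNAs encoded on the mouse mitochondrial genome, mt-Nd1, mt-Nd2, mt-Nd4, mt-Nd5, mt-Nd6, mt-Cytb, mt-Co1, mt-Co2, mt-Co3 and mt-Atp6. They were chosen by name as core subunits of the respiratory chain and ATP synthase that are made inside mitochondria. No threshold on measured values was used, but the choice was made with earlier results of these data known. They are 10 of the 39017 gene identifiers in the count table, and all 10 were among the 21298 genes that passed the filter on low counts. Counts were measured in 14 libraries of hippocampal RNA from male mice of C57BL/6 background that carried PV-Cre and a Cre-dependent EGFP-L10a allele, which tags cytosolic ribosomes in parvalbumin (PV) neurons. All mice shared this genotype, they entered the behavioral experiments at 8 to 12 weeks of age, and both hippocampi of 1 mouse made 1 translating ribosome affinity purification (TRAP) sample. TRAP RNA came from 4 non-defeated mice, and from mice that had gone through 10 days of chronic social defeat stress (CSDS), of which 4 were resilient and 3 susceptible by their social interaction. Total RNA of the non-defeated group, taken before purification, gave 3 input samples, whose mice are not stated to be those of the TRAP samples. Tagging followed Cre activity, so a cell other than a PV neuron that had expressed Cre would carry the tag as well.

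Mitochondria keep a small circular genome whose messenger RNAs are transcribed, processed and translated within the organelle by its own ribosomes. Each of the respiratory complexes I, III, IV and V combines subunits made there with many more that are encoded in the nucleus, translated on cytosolic ribosomes and imported, while complex II is wholly nuclear. The EGFP-L10a protein is part of the cytosolic ribosome and not of the mitochondrial one, so the 10 transcripts are taken here as RNA co-purified with the tagged ribosomes. PV neurons fire fast and are known for dense mitochondria.

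All 10 genes were located on the mitochondrial chromosome of the mm10 build (GRCm38). mt-Nd1 is at chrM:2751-3707, mt-Nd2 at chrM:3914-4951, mt-Co1 at chrM:5328-6872, mt-Co2 at chrM:7013-7696, mt-Atp6 at chrM:7927-8607, mt-Co3 at chrM:8607-9390, mt-Nd4 at chrM:10167-11544, mt-Nd5 at chrM:11742-13565, mt-Nd6 at chrM:13552-14070 and mt-Cytb at chrM:14145-15288. Each is a single exon without introns in the annotation. mt-Nd6 alone lies on the minus strand, and its annotated end overlaps that of mt-Nd5. The libraries do not mark strand, so reads of mt-Nd6 and reads from the opposite strand of the same stretch cannot be told apart.

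The coding sequences are written in the mitochondrial genetic code. In mitochondria TGA is read as tryptophan, whereas the cytosolic ribosome reads it as stop, and each of the 10 coding sequences holds TGA in frame, between 3 times in mt-Nd6 and mt-Atp6 and 17 times in mt-Co1. The lines give the GENCODE M21 transcript sequence leading up to the first in-frame TGA of each gene, 5′ to 3′ on the coding strand, with that TGA in capitals.
mt-Co1: atgttcattaatcgtTGA
mt-Nd4: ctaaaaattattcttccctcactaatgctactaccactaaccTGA
mt-Co3: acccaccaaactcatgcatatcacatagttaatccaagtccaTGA
mt-Nd2: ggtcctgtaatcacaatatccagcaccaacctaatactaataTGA
mt-Cytb: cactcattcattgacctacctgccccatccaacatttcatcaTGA
mt-Atp6: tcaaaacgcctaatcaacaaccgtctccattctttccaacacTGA
mt-Co2: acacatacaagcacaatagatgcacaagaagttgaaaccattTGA
mt-Nd5: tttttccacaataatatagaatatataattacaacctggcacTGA
mt-Nd1: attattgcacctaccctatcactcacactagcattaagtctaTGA
mt-Nd6: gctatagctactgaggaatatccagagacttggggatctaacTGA

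The first TGA is codon 6 of 515 in mt-Co1, codon 16 of 459 in mt-Nd4, codon 16 of 261 in mt-Co3 and codon 30 in both mt-Nd2 and mt-Cytb. It comes later in mt-Atp6 (codon 48), mt-Co2 (codon 65), mt-Nd5 (codon 68) and in mt-Nd1 and mt-Nd6 (codon 86 in both). Under the mitochondrial code none of the 10 holds a stop before its last codon. mt-Nd4, mt-Cytb and mt-Co3 end 1 base past their last full codon, and their stop is completed by the poly(A) tail that mitochondrial messages receive. mt-Nd4l, a neighbour that is not among the 10, is the only one of the 13 mitochondrial coding genes with no TGA in frame.

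Between 64110214 and 94726962 reads were counted per library, and each TRAP library was a separate mouse. Pvalb, which marks the tagged cells, was 28.2 ± 6.99 CPM (counts scaled to one common library total) in input (SD, n = 3) and 1425 ± 150 in non-defeated TRAP (n = 4), with a log2 fold change of 5.85 ± 0.17 (SE) and an adjusted p of 7.9e-11 by edgeR's quasi-likelihood test. All 41 marker genes of PV interneurons and 8 other cell types passed the filter, so none of them was at 0 throughout. Markers of other cells remained in TRAP at a lower level, summing to between 6170 and 6622 CPM in input and to between 1501 and 2064 CPM in non-defeated TRAP. In bulk samples, fewer cells of a type and less RNA per cell cannot be told apart.

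To ask how much mitochondrial RNA came along with the tagged ribosomes, non-defeated TRAP was compared with input. The 10 transcripts together were far lower in TRAP. Their summed level was 4561, 4215 and 4604 CPM in input samples 12, 13 and 14, which is 0.446% ± 0.0214 of all counts (SD, n = 3). In non-defeated TRAP it was 288 CPM in sample 1, 122 in sample 6, 82.2 in sample 9 and 226 in sample 11, or 0.0180% ± 0.00942 of all counts (n = 4). Every TRAP library, stressed groups included, stayed below every input library, and the mean of input was 24.8 times that of non-defeated TRAP. The input libraries lay within 1.09-fold of each other, whereas the non-defeated TRAP libraries spread over 3.5-fold.

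**Figure D1:**
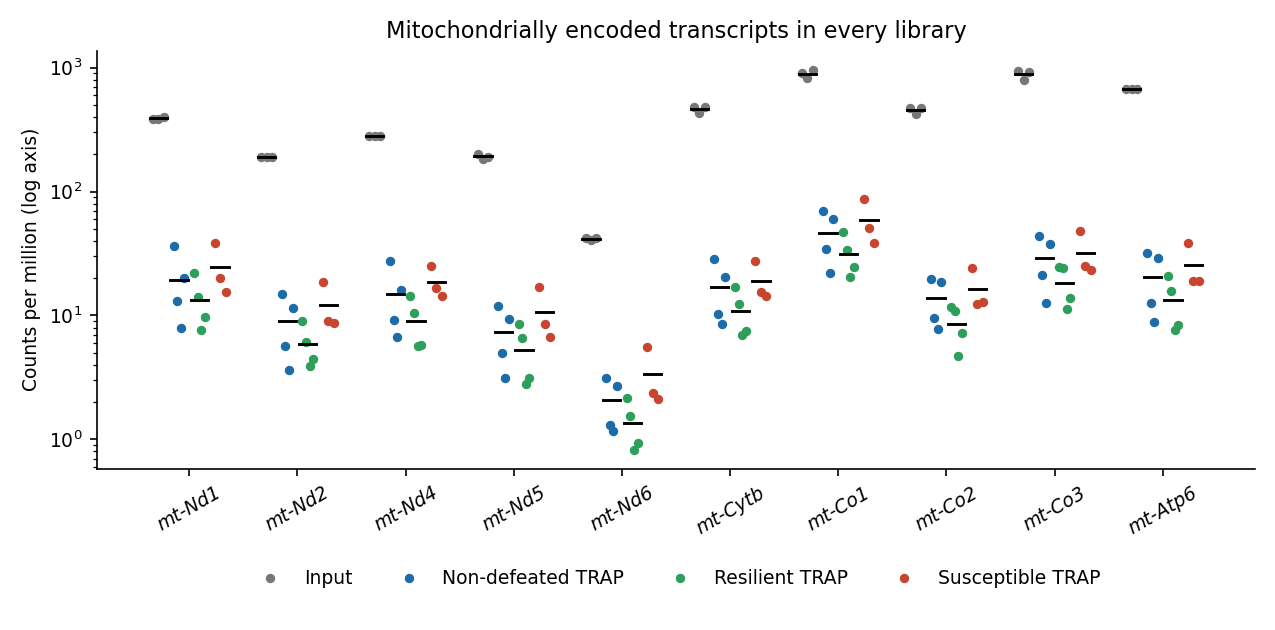
CPM of each of the 10 transcripts in every library, on a log axis, with the 3 input libraries in grey, the 4 non-defeated, 4 resilient and 3 susceptible TRAP libraries in blue, green and red, and group means as black lines. Input sits above all 11 TRAP libraries for each transcript, and among the TRAP groups the susceptible and resilient mice do not overlap for mt-Nd4 and mt-Co2, by a small gap, while all other pairs of TRAP groups overlap for each transcript.

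All 10 members passed the test as lower in TRAP, where 27.6% of all genes tested were lower. Their log2 fold changes ran from -4.85 in mt-Co2 to -4.06 in mt-Nd4, with a median of -4.38 against -0.04 over all genes, and adjusted p-values from 1.1e-07 to 3.8e-06 (edgeR's quasi-likelihood test). The groups did not overlap for any of them. For each, the 2-sided exact permutation test gave p = 0.0286, the smallest that 3 against 4 libraries allow.

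By complex, the 5 complex I messages (the mt-Nd genes) encode membrane subunits of the proton-pumping NADH dehydrogenase. mt-Nd1 was measured at 387, 381 and 400 CPM in the input libraries and at 36.3, 13.2, 7.98 and 20.2 CPM in non-defeated samples 1, 6, 9 and 11. Its log2 fold change was -4.15 ± 0.46 (SE). The same quantity was -4.23 ± 0.43 for mt-Nd2, -4.06 ± 0.42 for mt-Nd4, -4.53 ± 0.47 for mt-Nd5 and -4.15 ± 0.41 for mt-Nd6. mt-Nd2 was at 189 CPM in each input library and between 3.61 and 15.0 CPM in non-defeated TRAP. mt-Nd4 lay between 278 and 282 CPM and between 6.69 and 27.6 CPM, and mt-Nd5 between 183 and 202 CPM and between 3.12 and 11.9 CPM. Sample 1 was the highest and sample 9 the lowest of the non-defeated samples for each of these. mt-Nd6, at 42.0, 41.0 and 42.2 CPM in input and 3.12, 1.31, 1.17 and 2.71 CPM in non-defeated samples 1, 6, 9 and 11, had the fewest reads of the 10, from 70 to 412 counts in TRAP libraries.

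mt-Cytb encodes cytochrome b, the only complex III subunit made in mitochondria. It was at 482, 432 and 478 CPM in input and at 28.8, 10.2, 8.55 and 20.3 CPM in non-defeated samples 1, 6, 9 and 11, a log2 fold change of -4.60 ± 0.41. Samples 1 and 11 were again the higher pair.

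mt-Co1, mt-Co2 and mt-Co3 encode the core of cytochrome c oxidase (complex IV), which passes electrons to oxygen. mt-Co1 was 899, 823 and 960 CPM in input and 69.6, 34.3, 21.8 and 60.5 CPM in non-defeated samples 1, 6, 9 and 11, a log2 fold change of -4.08 ± 0.38. mt-Co2, with 470, 420 and 468 CPM in input and 19.6, 9.47, 7.78 and 18.6 CPM in the same TRAP samples, fell by 4.85 on the log2 scale (SE 0.37). mt-Co3, with 935, 800 and 927 CPM in input and 43.8, 21.3, 12.7 and 37.8 CPM in TRAP, fell by 4.76 (SE 0.41). In all 3, samples 1 and 11 were above samples 6 and 9. mt-Atp6, which forms part of the proton channel of ATP synthase (complex V), was at 672, 668 and 672 CPM in input and at 31.9, 12.6, 8.79 and 29.2 CPM in the non-defeated samples, and fell by 4.85 (SE 0.46).

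The composition of the 10 within each library differed between input and TRAP. mt-Co1 made up 20.0% ± 0.712 of their counts in input (SD, n = 3) and 26.4% ± 1.6 in non-defeated TRAP (n = 4), and its range in the 11 TRAP libraries, 24.2% to 28.6%, did not meet that of input, 19.5% to 20.8%. mt-Nd4 had a share of 6.28% ± 0.291 in input and 8.10% ± 1.09 in non-defeated TRAP, and mt-Nd6 one of 0.937% ± 0.0306 and 1.20% ± 0.165, also without overlap between input and the 11 TRAP libraries. In the other direction, the share in input and in non-defeated TRAP was 19.9% ± 0.797 and 16.2% ± 1.04 for mt-Co3, 15.1% ± 0.691 and 11.2% ± 1.13 for mt-Atp6, and 10.1% ± 0.172 and 8.06% ± 1.10 for mt-Co2, with no TRAP library inside the input range. The shares of mt-Nd1, mt-Nd2, mt-Nd5 and mt-Cytb overlapped between input and TRAP. A share of a fixed sum moves when any other member moves, so these are values of relative level only.

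**Figure D2:**
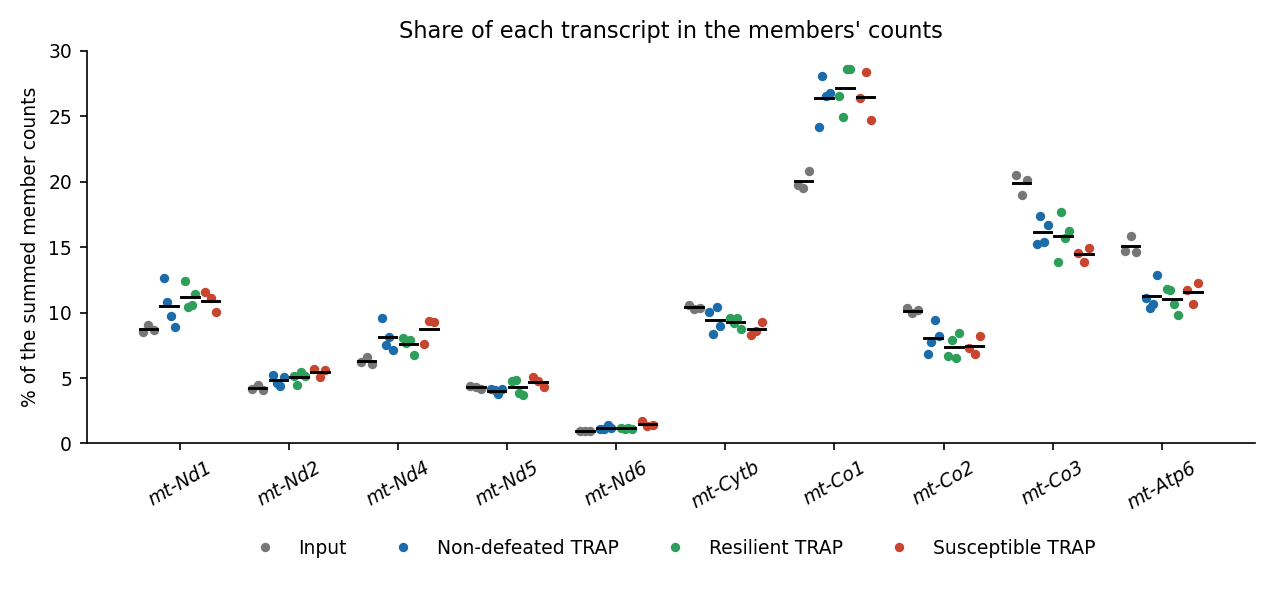
Share of each transcript in the summed counts of the 10, in percent, for every library, with group means as black lines. mt-Co1 stands at 24.2% to 28.6% in the TRAP libraries against 19.5% to 20.8% in input, and mt-Co3, mt-Atp6 and mt-Co2 stand lower in TRAP.

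Levels per length, in CPM per kilobase of transcript (RPKM), ordered the members in input as mt-Co3 (1132 ± 96.9, SD, n = 3), mt-Atp6 (985 ± 3.20), mt-Co2 (662 ± 41.3), mt-Co1 (579 ± 44.4), mt-Nd1 (407 ± 10.1), mt-Cytb (405 ± 24.4), mt-Nd4 (203 ± 1.62), mt-Nd2 (182 ± 0.203), mt-Nd5 (105 ± 5.28) and mt-Nd6 (80.4 ± 1.30). Neighbours in this order whose ranges overlapped were mt-Co2 with mt-Co1 and mt-Nd1 with mt-Cytb. In the 11 TRAP libraries mt-Co3 was still first, at a mean of 33.1 RPKM (SD 15.7), followed by mt-Co1 at 28.7 (SD 13.7), mt-Atp6 at 28.3 (SD 15.1), mt-Nd1 at 19.5 (SD 10.9) and mt-Co2 at 18.5 (SD 8.60). mt-Cytb, mt-Nd4 and mt-Nd2 came next, and mt-Nd6 (4.18, SD 2.63) and mt-Nd5 (4.11, SD 2.32) were last. Because each TRAP library shifted all members together, the ranges of all neighbours in the TRAP order overlapped.

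The fall extended to the mitochondrial genes outside the 10. The coding genes mt-Atp8 (complex V), mt-Nd3 and mt-Nd4l (both complex I) had log2 fold changes of -5.28 ± 0.49, -4.75 ± 0.41 and -4.09 ± 0.42 (SE). The ribosomal RNAs mt-Rnr2 and mt-Rnr1, the large and small rRNA of the mitochondrial ribosome, had -4.48 ± 0.38 and -3.89 ± 0.34. Together the rRNAs were at 981 ± 49.1 CPM in input (SD, n = 3) and 42.3 ± 20.4 CPM in non-defeated TRAP (n = 4). Among the 12357 genes with a mean of at least 5 CPM over the 14 libraries, the 10 members were within the 16 lowest log2 fold changes of TRAP against input. The only genes among the 12357 outside the mitochondrial genome at or below the highest member were Gm13341 and Gm10222, which are nuclear copies of mitochondrial DNA. That mean takes in the input libraries, where the members were high, so their place depends on this floor. Over all 21298 genes tested, log2 fold changes went down to -7.69.

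The nuclear-encoded subunits of the same complexes went the opposite way. Of 83 measured, 80 were higher in TRAP, where 27.4% of all genes tested were higher, and none was lower (edgeR's quasi-likelihood test). Their median log2 fold change was 1.54, with medians of 1.52 in complex I (35 of 36 higher), 0.89 in complex II (3 of 4), 1.37 in complex III (9 of 9), 1.81 in complex IV (15 of 16) and 1.54 in complex V (18 of 18). The 3 that did not pass were Ndufs1 (0.34, adjusted p = 0.129), Sdha (0.21, adjusted p = 0.197) and Cox6b2 (-0.27, adjusted p = 0.438). In each complex the subunit with the highest mean CPM was Ndufb8, an accessory subunit of complex I, at 1.87 ± 0.10 (SE), Sdha, the flavoprotein of complex II, at 0.21 ± 0.13, Uqcrc1, a core protein of complex III, at 0.89 ± 0.09, Ndufa4, now assigned to complex IV, at 2.01 ± 0.12, and Atp5b, the catalytic beta subunit of complex V, at 0.94 ± 0.10. The highest value was that of Cox6a2, the muscle-type isoform of a complex IV subunit, which was 8.29 ± 3.0 CPM in input (SD, n = 3) and 225 ± 43.5 CPM in non-defeated TRAP (n = 4), a log2 fold change of 4.95 ± 0.32 (SE). It was named after its value was seen.

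**Figure D3:**
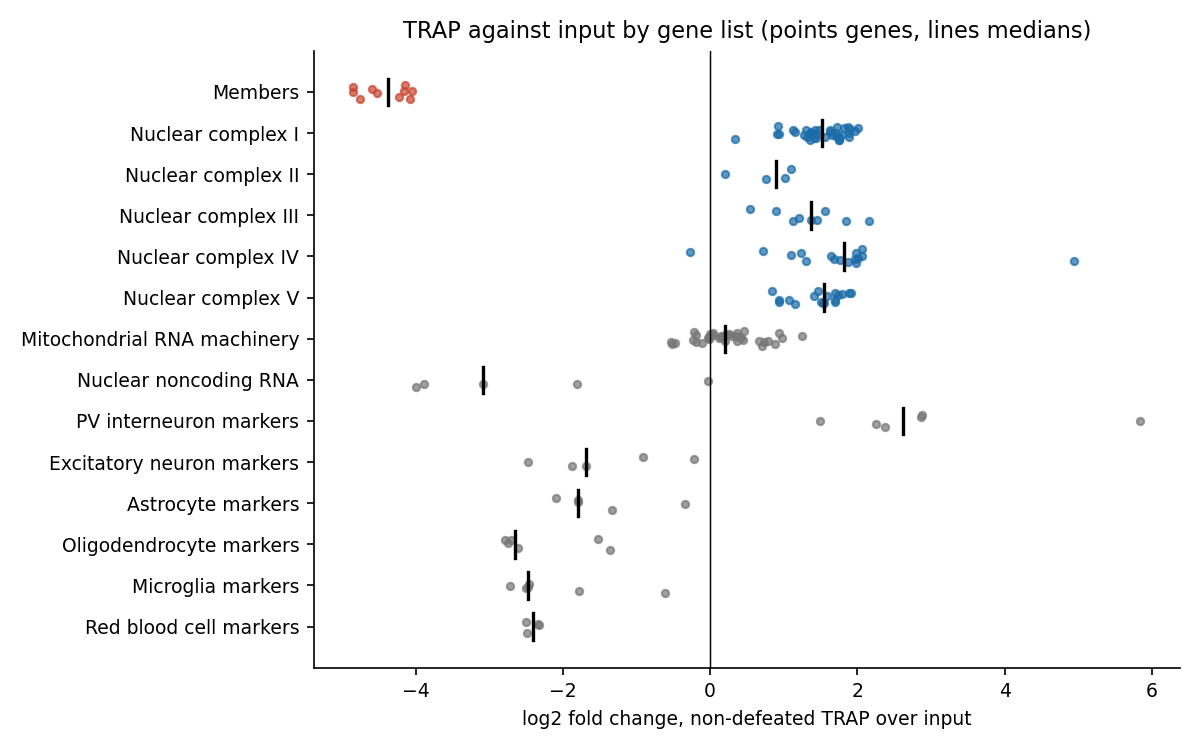
log2 fold change of non-defeated TRAP over input for each gene (points) of the members, the nuclear subunits by complex, the mitochondrial RNA machinery, nuclear noncoding RNAs and cell type markers, with list medians as black lines. The 10 members lie between -4.85 and -4.06, whereas 82 of the 83 nuclear subunits lie above 0.

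Measured against each other, the counts of the 10 members were 0.204 ± 0.00688 of those of the nuclear subunits of complexes I, III, IV and V in input (SD, n = 3) and 0.00330 ± 0.00161 in non-defeated TRAP (n = 4). The nuclear subunits summed to between 21461 and 22014 CPM in input and to between 48609 and 58296 CPM in non-defeated TRAP, 2.46 times higher on average. The ratio of members to nuclear subunits was therefore 61.9 times higher in input. It is a ratio of reads and not of molecules, since the lengths of the messages differ.

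Proteins that transcribe, process, stabilize or replicate the mitochondrial genome are themselves nuclear-encoded. Of 39 such genes, 17 were higher and 4 lower in TRAP, with a median log2 fold change of 0.20. Of all genes tested, 27.4% were higher and 27.6% lower. Mrpl12, a ribosomal protein that also binds the mitochondrial RNA polymerase, was 1.25 ± 0.14 (SE, adjusted p = 3.9e-06), Slirp, which binds mitochondrial messages together with Lrpprc, was 0.88 ± 0.09 (adjusted p = 2.3e-06), and Mterf2, of the transcription termination factor family, was 0.70 ± 0.09 (adjusted p = 1.0e-05). Among those lower were Fastkd5, needed for processing of messages that no tRNA borders (-0.53 ± 0.16, adjusted p = 0.0135), the endoribonuclease Lactb2 (-0.52 ± 0.15, adjusted p = 0.00930) and Polg, the mitochondrial DNA polymerase (-0.48 ± 0.15, adjusted p = 0.0146).

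Most nuclear noncoding RNAs and markers of other cells were lower in TRAP as well, where 27.6% of all genes tested were lower. Of 5 nuclear noncoding RNAs, 4 were lower in TRAP, namely Malat1 (-3.99 ± 0.34, SE), Neat1 (-3.90 ± 0.42), Miat (-3.08 ± 0.31) and Meg3 (-1.81 ± 0.24), while Pvt1 was at -0.02 ± 0.17 with an adjusted p of 0.919. Median log2 fold changes of marker lists were -2.66 for oligodendrocytes (6 of 6 lower), -2.47 for microglia (6 of 6), -2.41 for red blood cells (4 of 4), -1.79 for astrocytes (4 of 5) and -1.69 for excitatory neurons (4 of 5). By the marker with the highest mean CPM in each, log2 fold changes were -1.52 ± 0.36 for Mbp of oligodendrocytes, -0.61 ± 0.09 for Csf1r of microglia, -2.34 ± 0.39 for Hba-a1 of red blood cells, -1.34 ± 0.23 for Gfap of astrocytes and -0.91 ± 0.24 for Camk2a of excitatory neurons. Oligodendrocyte precursors and mural cells had 1 marker lower each, Pdgfra (-2.03 ± 0.34) and Rgs5 (-0.82 ± 0.16), whereas Cldn5 of endothelial cells was higher (1.22 ± 0.38). Markers of the 8 other cell types, summed, were 3.71 times higher in input than in non-defeated TRAP, against 24.8 times for the 10 members.

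Within TRAP, the question was whether the co-purified mitochondrial RNA differed between stress groups. The summed level of the 10 was 177 CPM in resilient sample 3, 136 in sample 5, 71.9 in sample 7 and 85.3 in sample 8. It was 329 CPM in susceptible sample 2, 179 in sample 4 and 156 in sample 10. The means were 180 ± 94.2 CPM in non-defeated (SD, n = 4), 118 ± 48.4 in resilient (n = 4) and 221 ± 94.1 in susceptible mice (n = 3). Non-defeated samples spanned nearly the whole range of the others, and the lowest susceptible sample was below the highest resilient one. The 3 comparisons share libraries and are not independent.

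In resilient against non-defeated mice, all 10 log2 fold changes were below 0, from -0.71 in mt-Nd4 to -0.47 in mt-Nd5, with a median of -0.61. None was called, where 0.0% of all genes were called, and none had an unadjusted p under 0.05 by edgeR's quasi-likelihood test, against 933 of all genes. edgeR's likelihood ratio test and DESeq2 also called 0 members, with 1 at an unadjusted p under 0.05 in each. Without resilient sample 3 or without non-defeated sample 9, 7 members had an unadjusted p under 0.05 and 0 were called, and without non-defeated sample 1 the median was -0.29. The interval of 2 SE on either side was -1.46 to 0.04 for mt-Nd4 and -1.23 to 0.11 for mt-Co1. The 4 resilient mice overlapped the 4 non-defeated mice for every member, and exact permutation p-values (2-sided) ran from 0.229 to 0.543. Nuclear subunits had a median of -0.14, with 0 called and 6 at an unadjusted p under 0.05.

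In susceptible against non-defeated mice, all 10 were above 0, from 0.14 in mt-Co3 to 0.69 in mt-Nd6, with a median of 0.33. None was called by the quasi-likelihood test, the likelihood ratio test or DESeq2, and none had an unadjusted p under 0.05 in any of them, where the quasi-likelihood test called 0.0376% of all genes. The interval was -0.38 to 1.04 for mt-Co1 and -0.10 to 1.48 for mt-Nd6. Groups overlapped for each member, with exact permutation p-values from 0.286 to 0.686. The direction rested on 1 library for 6 of the 10. Without susceptible sample 2 the median was -0.08, and the values of mt-Nd1, mt-Cytb, mt-Co1, mt-Co2, mt-Co3 and mt-Atp6 lay between -0.26 and -0.05. Without non-defeated sample 1 the median was 0.69, with 2 members at an unadjusted p under 0.05 and 0 called. Without susceptible sample 10 it was 0.53, with 1 member at an unadjusted p under 0.05 and 0 called. Nuclear subunits had a median of 0.11, with 0 called.

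In susceptible against resilient mice the values lay furthest from 0 of the 3 comparisons. All 10 members were above 0, with a median log2 fold change of 0.93 against 0.00 over all genes. None was called by the quasi-likelihood test, which called 1.89% of all genes, and the lowest adjusted p was 0.0941, for mt-Nd6. At an unadjusted p under 0.05, 7 of the 10 were higher, against 10.8% of all genes tested. The 10 varied closely together across the TRAP libraries, so they are not 10 separate pieces of evidence. The likelihood ratio test called 1 member, mt-Nd6, with 10 at an unadjusted p under 0.05, and DESeq2 called 3, mt-Nd2, mt-Nd4 and mt-Nd6, with 8.

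mt-Nd6 was 2.15, 1.54, 0.82 and 0.93 CPM in resilient samples 3, 5, 7 and 8 and 5.62, 2.37 and 2.14 CPM in susceptible samples 2, 4 and 10. Its log2 fold change was 1.29 ± 0.40 (SE), with an interval of 0.49 to 2.09 and an exact permutation p of 0.0857. Susceptible sample 2 was well above the rest, and sample 10 lay just under resilient sample 3.

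mt-Nd4 was 14.3, 10.4, 5.67 and 5.76 CPM in resilient samples 3, 5, 7 and 8 and 25.1, 16.8 and 14.4 CPM in susceptible samples 2, 4 and 10, a log2 fold change of 1.04 ± 0.40 with an exact permutation p of 0.0571. mt-Co2 was 11.8, 10.8, 4.67 and 7.22 CPM against 24.1, 12.3 and 12.8 CPM in the same order, a log2 fold change of 0.91 ± 0.34 with an exact permutation p of 0.0857. These were the 2 members whose groups did not overlap, a pattern that 7.71% of all genes tested showed in this direction, and in both the gap between the nearest mice was small.

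The remaining members were closer or overlapped. mt-Nd2 had a log2 fold change of 1.04 ± 0.40 (SE), mt-Nd5 1.01 ± 0.44, mt-Atp6 0.94 ± 0.42, mt-Co1 0.89 ± 0.36, mt-Nd1 0.87 ± 0.43, mt-Cytb 0.79 ± 0.38 and mt-Co3 0.78 ± 0.37. mt-Co1, the member with the most counts, was 47.0, 33.9, 20.6 and 24.4 CPM in resilient samples 3, 5, 7 and 8 and 86.9, 50.9 and 38.4 CPM in susceptible samples 2, 4 and 10. Resilient sample 3 was thus above susceptible sample 10. mt-Co3 was 24.6, 24.0, 11.3 and 13.8 CPM against 47.8, 24.9 and 23.2 CPM in the same order, and mt-Atp6 was 21.0, 15.9, 7.68 and 8.36 CPM against 38.6, 19.1 and 19.0 CPM. For both, resilient samples 7 and 8 were the lowest and susceptible sample 2 the highest. Over the 10, exact permutation p-values ran from 0.0571 to 0.229, where 0.0286 was the smallest possible. Without susceptible sample 2, the median log2 fold change was 0.53 and 0 members had an unadjusted p under 0.05, and without resilient sample 3 it was 1.22 and 10 had one.

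**Figure D4:**
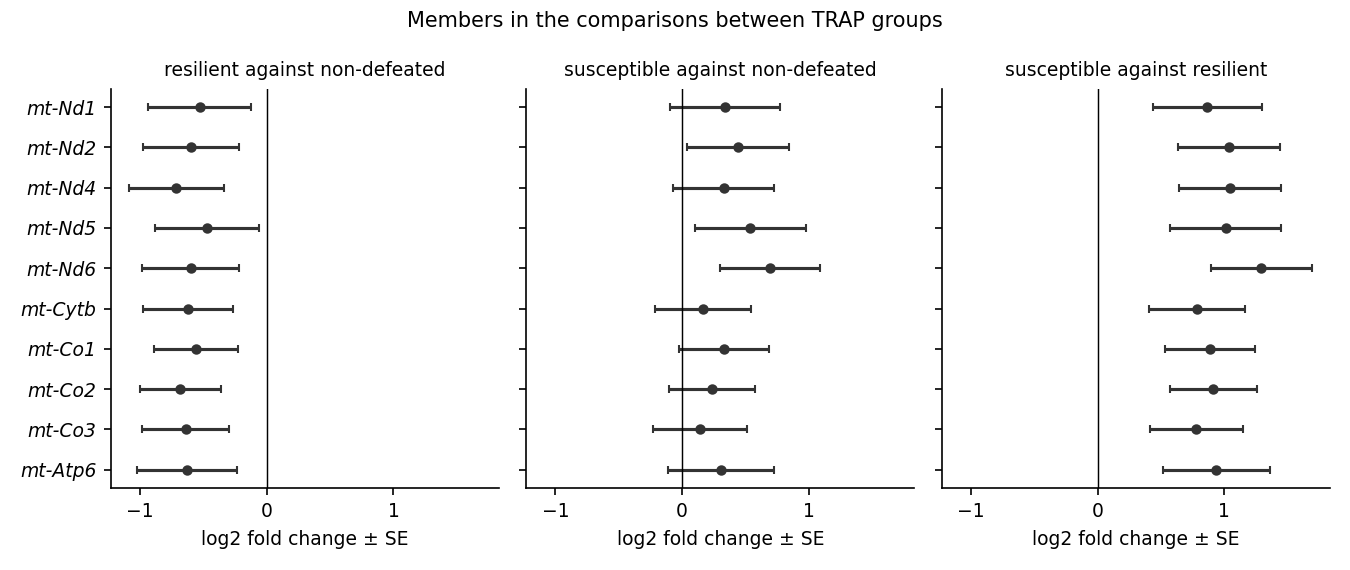
log2 fold change with its SE (bars) for each of the 10 transcripts in the 3 comparisons between TRAP groups, from 1 model of all 14 libraries. All 10 are below 0 in resilient against non-defeated and above 0 in both comparisons of susceptible mice, and none reached an adjusted p under 0.05.

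Other genes of the mitochondrial genome had values of like size in susceptible against resilient mice, with 0 called of 5. mt-Rnr1 was at 0.92 ± 0.33 (SE) and mt-Rnr2 at 0.98 ± 0.35, each with an adjusted p of 0.133, mt-Nd3 at 0.86 ± 0.41, mt-Atp8 at 0.78 ± 0.46 and mt-Nd4l at 0.51 ± 0.42. In resilient against non-defeated mice both rRNAs had an unadjusted p under 0.05, with log2 fold changes of -0.90 ± 0.31 and -0.98 ± 0.33 and an adjusted p of 1.0. Against non-defeated mice the susceptible group had values of 0.03 ± 0.33 for mt-Rnr1 and -0.00 ± 0.35 for mt-Rnr2.

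Of the nuclear subunits, 70 of 83 had values above 0 in susceptible against resilient mice. Their median log2 fold change was 0.28, with 3 of 83 called, all higher, where 1.89% of all genes were called. At an unadjusted p under 0.05, 51 were higher, against 10.8% of all genes, and 4 lower. The calls depended on the fit. There were 0 with RLE size factors, with no filter on low counts, with the 11 TRAP libraries only and with the 2 groups only. The number was also 0 without any 1 resilient or susceptible library other than susceptible sample 10. Without that sample it was 43, and with other-cell markers over Pvalb as a covariate it was 52. The 3 were Ndufa5 (0.43 ± 0.10, SE, adjusted p = 0.0447) and Ndufb3 (0.44 ± 0.10, adjusted p = 0.0468), both accessory subunits of complex I, and Cox7c of complex IV (0.47 ± 0.11, adjusted p = 0.0484). The 4 lower ones were Sdha, Uqcrc1, Atp5a1 and Atp5b, at -0.38, -0.30, -0.37 and -0.27, with adjusted p-values from 0.0929 to 0.135. These 3 and 4 genes were named after their values were seen. Taking members over nuclear subunits of complexes I, III, IV and V, the ratio of counts was 0.00330 ± 0.00161 in non-defeated (SD, n = 4), 0.00235 ± 0.000891 in resilient (n = 4) and 0.00384 ± 0.00147 in susceptible mice (n = 3), and its range of 0.00290 to 0.00553 in susceptible mice met that of 0.00148 to 0.00333 in resilient mice.

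Of the 39 genes of the mitochondrial RNA machinery, 1 was called in susceptible against resilient mice, where 1.89% of all genes were called. Supv3l1, the helicase of the mitochondrial RNA degradosome, was 26.1 ± 2.03 CPM in resilient (SD, n = 4) and 18.8 ± 1.53 CPM in susceptible mice (n = 3), a log2 fold change of -0.49 ± 0.12 (SE) with an adjusted p of 0.0484. With the 2 groups only, 0 genes of the whole table were called, Supv3l1 among those lost. Polrmt, the mitochondrial RNA polymerase, was at -0.55 ± 0.15 (adjusted p = 0.0749) and Slirp at 0.36 ± 0.09 (adjusted p = 0.0586). Tfam, which packages the genome and helps start its transcription, was at -0.01 ± 0.09 (adjusted p = 0.978). Polrmt, Slirp and Tfam were not called and were named here after their values were seen. At an unadjusted p under 0.05 by the quasi-likelihood test, 2 of the 39 were higher and 4 lower, against 2309 and 2152 of all 21298 genes. None of the 39 was called in the other stress comparisons.

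Markers of other cells also differed between the groups. In susceptible against resilient mice, where 1.89% of all genes were called, all 4 red blood cell markers were called higher. They were the only ones called among the 41. Of the 4, 2 were called higher in susceptible against non-defeated mice, where 0.0376% of all genes were called. The sum of the 4 was 866 to 1212 CPM in susceptible, 120 to 567 CPM in resilient and 109 to 233 CPM in non-defeated mice. The 3 mural cell markers, Kcnj8, Myh11 and Rgs5, were also higher in susceptible against resilient mice at an unadjusted p under 0.05, with a median log2 fold change of 0.74 and 0 called, and their sum was 12.2 to 15.7 CPM in susceptible, 8.19 to 12.98 CPM in resilient and 6.34 to 8.77 CPM in non-defeated mice. In resilient against non-defeated mice the red blood cell markers had a median of 0.73 with 0 called. Summed over the 8 other cell types, markers averaged 2658 CPM in susceptible, 1806 in resilient and 1710 in non-defeated mice. Red blood cell markers made up 985, 269 and 162 CPM of these means. Markers of all 8 other cell types, relative to Pvalb, had ratios of 1.44 to 2.69 in susceptible, 0.886 to 2.42 in resilient and 1.0 to 1.44 in non-defeated mice. This ratio was lowest in resilient sample 3 (0.886), where the members summed to 177 CPM, and highest in susceptible sample 10 (2.69), where they summed to 156 CPM. It was 1.71 in susceptible sample 2, where the members were highest (329 CPM), and 1.29 in resilient sample 7, where they were lowest (71.9 CPM). With that ratio as a covariate in the 11 TRAP libraries, the median log2 fold change of the members in susceptible against resilient mice was 1.07, with 0 called and 7 at an unadjusted p under 0.05. The nuclear noncoding RNAs, summed, were at 90.3 to 153 CPM in susceptible and at 43.0 to 75.2 CPM in resilient mice, and Malat1 was at 1.18 ± 0.31 (SE, adjusted p = 0.0641), Miat at 1.16 ± 0.32 and Meg3 at 0.64 ± 0.24. The part of other cells and of nuclear noncoding RNAs in the members' values was not tested.

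Sample names run from 1 to 11 across the TRAP groups, and the members were highest in samples 2, 1 and 11 and lowest in samples 7, 9 and 8. In samples 1 to 6 the summed level was 122 to 329 CPM and in samples 7 to 11 it was 71.9 to 226 CPM. The members' mean log2 CPM was higher in susceptible than in resilient mice by 0.69 in samples 1 to 6, with 2 mice in each group, and by 1.03 in samples 7 to 11, with 1 susceptible and 2 resilient mice. Resilient against non-defeated, the difference was -0.23 and -0.84, and susceptible against non-defeated it was 0.45 and 0.19. With the sample number as a covariate, 0 members were called in any of the stress comparisons. In susceptible against resilient mice 9 had an unadjusted p under 0.05 and the median log2 fold change was 0.90. In resilient against non-defeated mice 5 had one and the median was -0.76. In susceptible against non-defeated mice 0 had one and the median was 0.13. What the sample number stands for is not given in the sources used here.

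**Figure D5:**
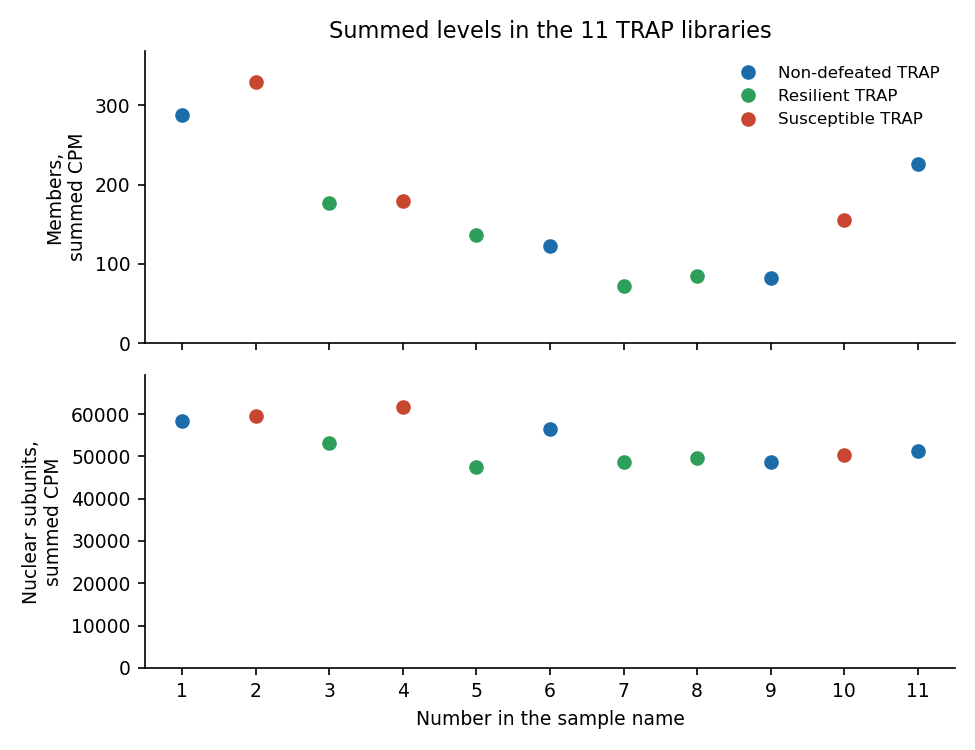
Summed CPM of the 10 transcripts (top) and of the nuclear subunits of complexes I, III, IV and V (bottom) in the 11 TRAP libraries, by the number in the sample name and coloured by group. The members range from 71.9 CPM in resilient sample 7 to 329 CPM in susceptible sample 2, a 4.58-fold span, and the nuclear subunits span 1.30-fold.

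Across the 11 TRAP libraries the 10 members varied together. Each had a Pearson correlation of 0.966 to 0.992 with the mean log2 CPM of the other 9. Points share a library and its depth, so this is a description with no test. The nuclear subunits had a median correlation of 0.60 with the members' mean, and the 21261 genes outside the mitochondrial genome one of -0.03. The 5 genes most like the members by this measure were Gm13340 (0.983), Gm13341 (0.964), Gm13339 (0.954), Malat1 (0.930) and Gm10222 (0.918).

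Of these, 4 are nuclear copies of mitochondrial DNA that can take reads from the members. Gm13340 is 97.6% identical to mt-Co1 over 1545 bases, Gm13341 is 95.9% identical to mt-Co2 over 684 bases and Gm13339 is 96.7% identical to mt-Nd2 over 510 bases. A further copy in the count table, Gm4076, is 95.2% identical to mt-Nd5 over 954 bases. Gm10222 is identical to mt-Nd4l over 294 bases, and the counts of the pair were equal in 10 of 14 libraries and differed by 0 to 5 in all 14, against counts of 48 to 3262. The levels of mt-Co1, mt-Co2, mt-Nd2 and mt-Nd5 are uncertain to the extent that reads were shared with these copies. The log2 fold changes of TRAP against input were -4.02 ± 0.39 (SE) for Gm13340, -5.06 ± 0.36 for Gm13341, -4.14 ± 0.42 for Gm13339 and -4.09 ± 0.42 for Gm10222. mt-Atp6, mt-Co2, mt-Co3 and mt-Nd4 also have nuclear copies that are identical to them over 678, 681, 783 and 876 bases. mt-Co1 has a further copy, 99.8% identical over 483 bases. These copies are not in the count table. How reads matching both a member and a copy were counted is not given in the sources used here. The levels of these members and their order per length are uncertain to that extent as well.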

How the data were processed

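Hippocampal TRAP and input RNA was measured in 14 libraries. Full-length cDNA was read from 1 end over 150 bases, with Nextera XT libraries that do not mark strand. The authors trimmed reads with fastp, aligned them to mm10 with STAR (2.5.3a in the submitters' processing notes, which also name HTSeq) and deposited raw counts per gene, without normalization. The study's methods name a different STAR version. The gene annotation is not given in the sources used here. No per-sample column was left out. Samples were grouped by their labels and shared no numbers across groups.

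Genes were named from GENCODE M21 (37607 of 39017 identifiers matched). Members, lists and tests were chosen with earlier results of these data known. All 14 libraries were fitted in 1 model in R 4.3.3 with edgeR 4.0.16, using TMM normalization, the default filter on low counts and the 2-sided quasi-likelihood test with Benjamini-Hochberg adjustment over 21298 genes, with an adjusted p under 0.05 as threshold. The SE of a log2 fold change was worked back from the quasi-likelihood test, as its absolute value over the square root of the F statistic. Intervals of 2 SE therefore restate that test. CPM are counts over the library total, and RPKM also divide by gene length. Exact permutation tests used log2 CPM with a prior count of 2. Totals were 64110214 to 94726962 counts, and replicate spread includes counting error. Steps were tested on simulated data.

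Alternatives were RLE size factors, library totals without mitochondrial genes, no filter on low counts and at least 10 counts in every library. Further ones were DESeq2 1.42.0 for each pair of groups, edgeR's likelihood ratio test, fewer groups in the fit and covariates for sample number or marker ratio. In each comparison, each library of the 2 groups compared was also left out. Named beside the 10 members were the other mitochondrial genes, the nuclear subunit with the highest mean CPM per complex, up to 3 machinery genes per direction with the smallest p among those called, the noncoding RNAs that passed the filter, Pvalb and the marker with the highest mean CPM per cell type, and the 5 genes most correlated with the members. Nuclear copies were matched to GENCODE transcripts with blastn at 95.0% identity or more.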

Additional observations from a re-analysis of the deposited data

How the results depend on the processing

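Under every alternative, all 10 members stayed lower in TRAP than in input with an adjusted p under 0.05 (140 values, log2 fold changes of -5.12 to -3.82), and all 10 stayed below 0 and uncalled in resilient against non-defeated mice (180 values, -1.01 to -0.05). In susceptible against resilient mice all 170 values were above 0 (0.38 to 1.58), from refits of the same libraries and transcripts that varied together. The quasi-likelihood test called 0 members there, the likelihood ratio test 1 (mt-Nd6, adjusted p = 0.0340) and DESeq2 3 (mt-Nd4, mt-Nd2 and mt-Nd6, with adjusted p-values of 0.0272, 0.0359 and 0.0438). Over all alternatives the adjusted p-values of the members there ran from 0.0272 to 0.719. In susceptible against non-defeated mice 10 of 170 values turned below 0. With the sample number as a covariate mt-Co3 was at -0.027. Leaving out 1 susceptible or non-defeated library at a time gave -0.11 to 0.81 for mt-Nd1, -0.17 to 0.53 for mt-Cytb and -0.050 to 0.58 for mt-Co1. It gave -0.14 to 0.43 for mt-Co2, -0.26 to 0.40 for mt-Co3 and -0.10 to 0.58 for mt-Atp6. All 6 turned without susceptible sample 2, mt-Cytb also without non-defeated sample 6 (-0.01) or 9 (-0.05), and mt-Co3 without non-defeated sample 9 (-0.10).

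Nuclear subunits called in susceptible against resilient mice numbered 3, but 0 with RLE size factors, with no filter, with the 11 TRAP libraries only and with the 2 groups only, 6 with at least 10 counts in every library, 8 with DESeq2, 12 with the likelihood ratio test, 28 with the sample number and 52 with the marker ratio as a covariate. Leaving out 1 library of these 2 groups gave 0 to 43, with 43 without susceptible sample 10 and 0 without any other of them. Libraries of the other groups were not left out for this comparison. All genes called there numbered 403, but 0 with the 2 groups only, 1 with the 11 TRAP libraries only and 126 with no filter. They numbered 1030 with DESeq2, 1099 with the likelihood ratio test, 1109 with the sample number and 1661 with the marker ratio. Without 1 library of these 2 groups they numbered 6 to 1058. In susceptible against non-defeated mice all genes called numbered 8, but 0 with the 11 TRAP libraries only or either covariate and 5 with the 2 groups only. They numbered 13 with RLE size factors, 16 with at least 10 counts in every library, 107 with DESeq2 and 189 with the likelihood ratio test. Without 1 susceptible or non-defeated library they numbered 0 to 6. The cause was not tested.

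With TMM-scaled totals the summed level of the members in input was 4034 CPM. The ratio of members to nuclear subunits in input was 0.192 with complex II included. As a ratio of geometric means it was 1.78 in input and 0.0285, 0.0205 and 0.0340 in non-defeated, resilient and susceptible TRAP, since this weighs every gene alike. Groups of 3 and 4 cannot give an exact permutation p below 0.0286, and the members' SE of 0.32 to 0.44 between TRAP groups limits what could be called.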

Other observations

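Mitochondrial transfer RNAs were read as well. Summed, they were at 128 ± 3.44 CPM in input (SD, n = 3), 6.82 ± 3.18 in non-defeated (n = 4), 4.62 ± 2.07 in resilient (n = 4) and 9.31 ± 3.11 CPM in susceptible TRAP (n = 3). Among the 12357 genes with a mean of at least 5 CPM, the tRNA gene within the 25 lowest log2 fold changes of TRAP against input was mt-Ts1 (-3.81). It overlaps the end of mt-Co1 on the other strand, and strand is not marked in these libraries.

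Among the same 25 genes, those outside the mitochondrial genome and its nuclear copies were Malat1 (-3.99), the 7SL RNA genes Rn7s1 (-3.56) and Rn7s2 (-3.55), Gng12 (-3.02), Tgfa (-2.99) and Vxn (-2.94). 7SL is the RNA of the signal recognition particle, which binds translating ribosomes and brings them to the endoplasmic reticulum.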
